A study of Glycine max with 12 samples.

Results

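The seed coat and the cotyledon of mature dry soybean (*Glycine max*) seed were compared by RNA-Seq, with 1 library of each tissue and no replicates. Both tissues came from Williams, a yellow-seeded cultivar grown in the greenhouse, whose seeds were dissected by hand and whose RNA was taken from freeze-dried tissue. No transgene or treatment was involved. The label of the dry cotyledon does not say whether the embryo axis was taken off. The series holds 12 libraries in all, and a second pair from 200-300 mg desiccating Williams seed, a seed coat and a cotyledon labelled as free of the axis, was used to look at the same contrast at an earlier stage. All 4 libraries share the sequencing machine and the read length, and the pairs share no library. Gene models were the unit of the comparison. Of the 56044 models in the deposited table, 136 models of chromosome 13 between Glyma.13G011000 and Glyma.13G026000 that have neither a Pfam domain nor an Arabidopsis match were dropped, both columns were scaled to the same sum, and the 21365 models with at least 1 RPKM in either tissue were kept. RPKM is the number of hits of reads on a model divided by the length of the model and by all hits of the library. Levels below are such rescaled RPKM values unless called deposited.

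The seed coat is maternal tissue that surrounds the embryo. It passes sugars and amino acids to the embryo while the seed fills, stiffens its walls, and at maturity is a dead or dying barrier against water loss, pathogens and insects. The cotyledons are the storage organ of the embryo: they fill with globulin storage proteins and oil bodies, survive drying, and are mobilised after germination. Transcripts that remain in a dry seed are those present when drying ended, since transcription stops at low water content.

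Since each tissue has only 1 library, no difference could be checked against replicates and no test across genes was made. A difference is written as log2(rescaled RPKM + 0.1), seed coat minus cotyledon, and a model was counted as different at 4-fold. Ratios of single models carry an exact Clopper-Pearson 95% interval from the numbers of hits, which were recovered from the RPKM values. These intervals cover counting error only and not the choice of scaling. A read could be a hit of several similar models, so close copies share reads and their values are not independent. The recovered totals were 114458310 hits for the dry seed coat and 113849628 for the dry cotyledon, and 112766607 and 38769706 for the desiccating seed coat and cotyledon. The dropped chromosome 13 models had taken 47.6% of the summed RPKM of the dry seed coat, against 19.8% for the dry cotyledon.

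The markers that define the tissues were read first. All 7 cotyledon marker genes were more than 4-fold lower in the dry seed coat, and together they took 0.00428% of its summed RPKM, against 0.365% in the dry cotyledon. They include storage globulins, the seed lectin Le1 and the Kunitz model Glyma.08G341500, whose values return below and are not separate from this check. Deposited values of Glyma.08G341500 were 5.11 RPKM in the dry cotyledon, 57.9 RPKM in the 5-6 mg cotyledon, and 20.2 and 46.5 RPKM in the 200-300 mg and 300-400 mg embryo axes. The glycinin match Glyma.03G163500, a globulin storage protein, had 1.32 RPKM in the seed coat and 759 RPKM in the cotyledon. The seed coat peroxidase Glyma.09G022300, the defining seed coat marker, was close to absent from both dry tissues, at deposited values of 0.393 RPKM in the seed coat and 0 in the cotyledon. In the same units it had 374 RPKM in the desiccating seed coat and 325 RPKM in the 25-50 mg Williams seed coat. The label of the dry seed coat therefore could not be checked with this marker. The BURP domain proteins chosen as further seed coat markers were higher in the cotyledon, with 3 of 3 kept members more than 4-fold lower in the seed coat. Cutin, suberin and wax enzymes, also chosen as seed coat markers, had 2 of 10 kept members at least 4-fold higher in the seed coat and 3 lower. They took 0.00901% of the summed RPKM in the seed coat and 0.0158% in the cotyledon. Of 49 Arabidopsis endosperm matches 3 were kept, with 0.00309% of the summed RPKM in the seed coat and 0.00224% in the cotyledon for the whole list. Of these 3, 1 was at least 4-fold higher in the seed coat and none 4-fold lower. It was the AGL62 match Glyma.02G179300, with a log2 difference of 4.66. Whether the dissected seed coat held endosperm was not tested. Of 39 embryo axis and meristem matches 1 was kept, with 0.00180% in the seed coat and 0.00333% in the cotyledon for the whole list.

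Of the 21365 kept models, 1002 (4.69%) were at least 4-fold higher in the dry seed coat and 1918 (8.98%) at least 4-fold lower. At 2-fold, 1881 models (8.8%) were higher and 5839 (27.3%) lower, and 13645 models lay within 2-fold of each other. The difference was not centred on 0: its median over all kept models was -0.47, with quartiles at -1.07 and 0.09. The limit of 1 RPKM was met by 17859 models of the seed coat, 19945 of the cotyledon and 16439 of both, and the values next to it were 1.00 RPKM for Glyma.08G233800, which was kept, and 0.999 RPKM for Glyma.17G102300, which was not. In bulk tissue, fewer cells of a type and less RNA per cell cannot be told apart. The seed coat RNA was concentrated in few models, since its 10 highest models took 22.6% of the sum, against 9.09% for the 10 highest in the cotyledon, and its 100 highest took 42.6%, against 25.9%. The split of calls changed with the scaling. With the seed coat column scaled so that the median ratio was 1, 1465 models were 4-fold higher and 1324 lower, so that 52.5% of the calls were higher in place of 34.3%. With the sum taken without the 100 highest models of either library the counts were 1343 and 1432. Genes whose difference lies near -0.47 are therefore at the level of the typical model. Counts of list members past 4-fold are likewise to be read beside the 4.69% higher and 8.98% lower among all kept models.

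**Figure D1:**
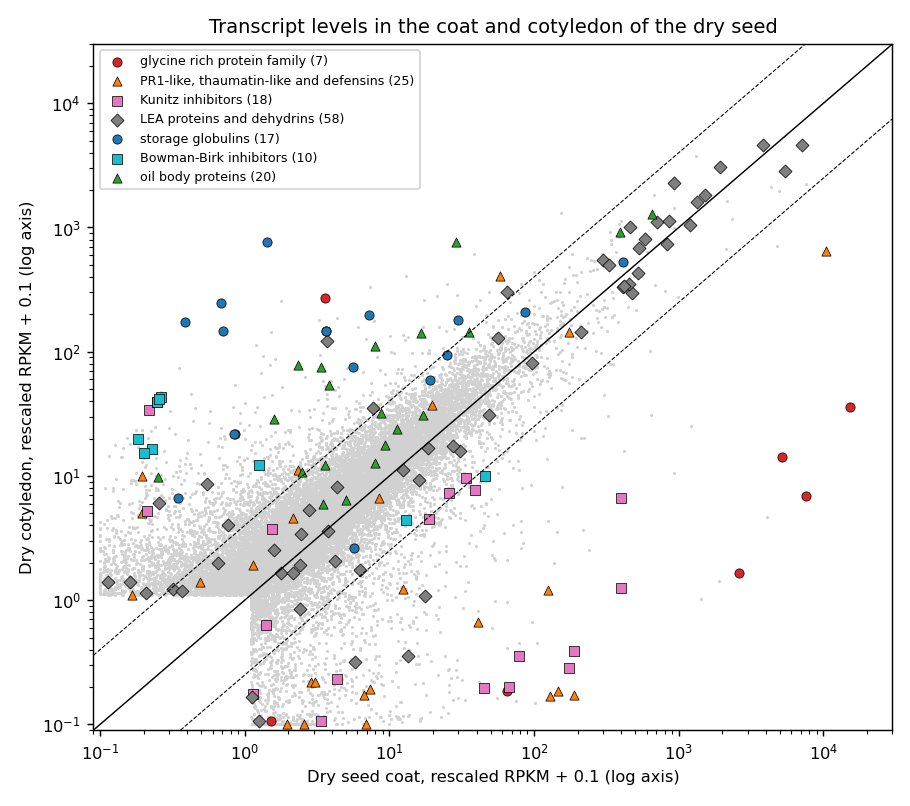
Levels of all 21365 kept models (grey) and of 7 gene lists in the dry seed coat (horizontal axis) and the dry cotyledon (vertical axis), each point 1 model on log axes of rescaled RPKM + 0.1, with the line of equality and dashed lines at 4-fold. Most glycine rich and Kunitz models lie to the lower right, up to 15256 RPKM in the seed coat, most storage globulins and Bowman-Birk inhibitors to the upper left, and the most abundant LEA proteins along the line.

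Glycine rich proteins led the dry seed coat. Members of this family are small secreted proteins of plant cell walls and surfaces. Glyma.20G011400 was the most abundant model of the library, with 15256 RPKM in the seed coat and 35.5 RPKM in the cotyledon, a 430-fold ratio (95% interval 413 to 447). Its neighbours followed the same pattern: Glyma.20G011300 had 5161 RPKM in the seed coat and 14.2 RPKM in the cotyledon, and Glyma.20G011500 had 2599 RPKM and 1.55 RPKM. On chromosome 7, Glyma.07G176000 had 7615 RPKM in the seed coat and 6.75 RPKM in the cotyledon (1128-fold, 1032 to 1236). Of the 7 kept members of the family, 6 were at least 4-fold higher in the seed coat and 1 lower, with a median log2 difference of 8.49 beside -0.47 over all kept models. With no minimum level, so that every model above 0 in either tissue counted, these medians were 1.02 and -0.23. The family was added as a list after its values had been seen. It took 9.54% of the summed RPKM in the seed coat and 0.102% in the cotyledon. The exception was Glyma.14G052000, matched to the Arabidopsis short glycine-rich protein GRP3S, with 3.48 RPKM in the seed coat and 270 RPKM in the cotyledon (77.6-fold lower, 68.8 to 87.7).

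Many proteins that act against microbes were also far higher in the seed coat. Among the 25 kept members of the list of PR1-like, thaumatin-like and defensin proteins, 14 were at least 4-fold higher in the seed coat and 5 lower, and the median difference was 3.70. With no minimum level that median was 0.25, beside -0.23 over all models. The list took 3.55% of the summed RPKM in the seed coat and 0.398% in the cotyledon. Most of that was the defensin Glyma.13G278000, a gamma-thionin matched to PDF2.4, a small cysteine-rich antifungal protein. It was the second highest model of the seed coat, at 10496 RPKM, and had 646 RPKM in the cotyledon (16.2-fold, 16.1 to 16.4). A thaumatin-like cluster on chromosome 10 was scarcely detected in the dry cotyledon: Glyma.10G061000 had 188 RPKM in the seed coat and 0.0723 RPKM in the cotyledon, from 6 hits. Glyma.10G061800 had 147 RPKM in the seed coat and 0.0861 RPKM in the cotyledon, and Glyma.10G060800 had 129 RPKM and 0.0680 RPKM. Osmotin matches, thaumatin relatives induced by salt and drought, behaved alike: Glyma.05G204800 had 125 RPKM in the seed coat and 1.11 RPKM in the cotyledon, and Glyma.01G217600 had no hit in the cotyledon and was at least 404-fold higher in the seed coat when the cotyledon is set at 3 hits.

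The same families had members with the opposite preference. The defensin Glyma.05G198000, matched to PDF2.2, had 58.4 RPKM in the seed coat and 404 RPKM in the cotyledon, 6.92-fold lower (6.72 to 7.13). Among thaumatin-like models, Glyma.11G140800 had 0.0957 RPKM in the seed coat and 9.91 RPKM in the cotyledon. Another PDF2.2 match, Glyma.16G100400, lay close to equality at 173 RPKM in the seed coat and 144 RPKM in the cotyledon.

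Chitinases cleave the chitin of fungal walls. Glyma.02G042500, matched to the Arabidopsis basic chitinase, had 1433 RPKM in the seed coat and 0.918 RPKM in the cotyledon (1561-fold, 1306 to 1881), the second largest log2 difference (10.46) among models that reached 5 RPKM. Glyma.11G124500, a match of the EP3 chitinase, had 29.7 RPKM in the seed coat and 0.0626 RPKM in the cotyledon. Of the 7 kept chitinases 3 were at least 4-fold higher and none lower, and the median was -0.76, or 1.13 with the median ratio scaling. The 2 CTL1 matches, of a chitinase-like protein that works in the cell wall, were Glyma.18G283400 with 21.2 RPKM in the seed coat and 36.3 RPKM in the cotyledon, and Glyma.08G259200 with 19.2 RPKM and 33.7 RPKM.

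Protease inhibitors divided by family. Kunitz inhibitors, which block trypsin and related digestive proteases, were mostly higher in the seed coat among kept models. Of 18 kept models 12 were at least 4-fold higher and 2 lower, with a median of 3.46, or 1.06 with no minimum level. Glyma.08G235400 had 398 RPKM in the seed coat and 1.16 RPKM in the cotyledon (344-fold, 290 to 410), Glyma.16G212400 had 398 RPKM and 6.61 RPKM, and Glyma.08G341400 had 174 RPKM and 0.184 RPKM. The potato inhibitor I family, small serine protease inhibitors induced by wounding in other plants, showed the same direction in 5 of 6 kept models, led by Glyma.20G205800 with 923 RPKM in the seed coat and 10.4 RPKM in the cotyledon. This family was added after its values had been seen.

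Bowman-Birk inhibitors, which can bind both trypsin and chymotrypsin, went the other way. Of 10 kept models 8 were at least 4-fold lower in the seed coat and 1 higher, with a median of -6.51. The list took 0.0190% of the summed RPKM of the dry seed coat, against 0.0750% for the dry cotyledon. Embryo axes of 200-300 mg and 300-400 mg seed had larger shares, 0.175% and 0.446%. The desiccating cotyledon, labelled as free of the axis, had 0.119%, and the desiccating seed coat 0.0144%. Whether axis tissue added to the dry cotyledon values was not tested. Glyma.09G158600 had 0.155 RPKM in the seed coat and 41.8 RPKM in the cotyledon (270-fold lower, 142 to 592), from 9 hits in the seed coat. Glyma.09G158800 and Glyma.14G117600 had identical values in every library and cannot be told apart by these reads. The member that was higher in the seed coat was Glyma.18G231500, with 46.1 RPKM in the seed coat and 9.88 RPKM in the cotyledon. The 2 Kunitz models low in the seed coat were the KTI1 matches Glyma.01G095000, with 0.119 RPKM in the seed coat and 33.8 RPKM in the cotyledon, and Glyma.08G341500, with 0.110 RPKM and 5.11 RPKM.

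**Figure D2:**
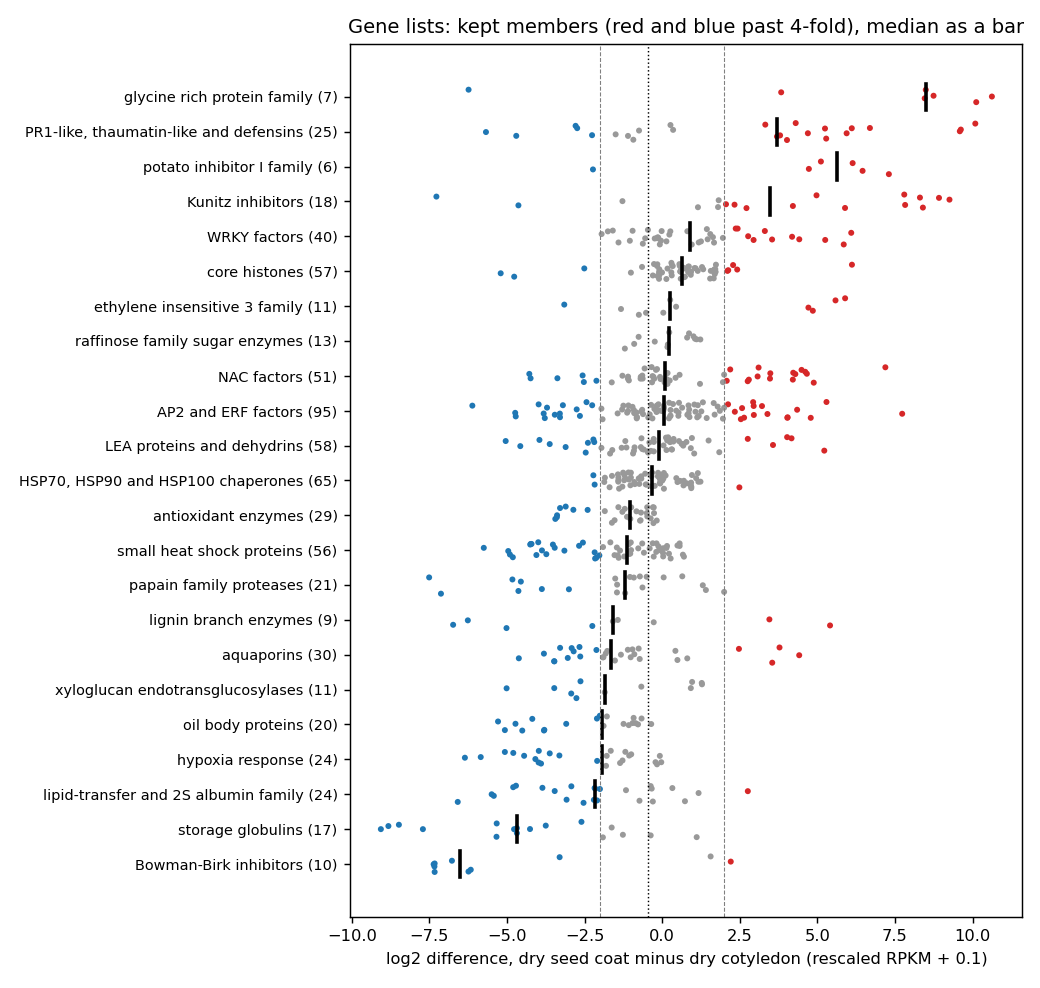
Log2 difference, dry seed coat minus dry cotyledon, of every kept member of 23 gene lists (number of members in brackets). Points at or past 4-fold are red where higher in the seed coat and blue where lower, black bars are list medians, and the dotted line is the median of all kept models at -0.47. The medians run between 8.49 for the glycine rich family and -6.51 for Bowman-Birk inhibitors.

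Models without annotation held part of the seed coat sum. Those with neither a Pfam domain nor an Arabidopsis match took 10.6% of the summed RPKM in the seed coat and 4.08% in the cotyledon, and they were 10.9% of the models higher in the seed coat, 4.74% of those lower and 3.53% of all kept models. Unplaced scaffold models were among the 10 highest of the seed coat. Glyma.U005800 had 7603 RPKM in the seed coat and 2223 RPKM in the cotyledon, Glyma.U007400 had 4934 RPKM and 1955 RPKM, and Glyma.U007300 had 4751 RPKM and 714 RPKM. Other unannotated models were far lower in the cotyledon: Glyma.14G052900 had 4059 RPKM in the seed coat and 4.60 RPKM in the cotyledon, and Glyma.02G258500 had 1884 RPKM and 1.34 RPKM. Without all models that lack annotation, 893 models were 4-fold higher and 1827 lower.

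Storage proteins set the cotyledon apart. The list of storage globulins holds glycinin and beta-conglycinin matches, the main reserve proteins of soybean. Of its 17 kept models 12 were at least 4-fold lower in the seed coat and none higher, with a median of -4.68, and the list took 0.186% of the summed RPKM in the seed coat and 0.937% in the cotyledon. The glycinin match Glyma.03G163500 was the most negative of all differences at -9.06 (575-fold lower, 542 to 611). Glyma.10G037100 had 0.587 RPKM in the seed coat and 246 RPKM in the cotyledon, and Glyma.19G164900 had 0.284 RPKM and 173 RPKM. The beta-conglycinin match Glyma.10G246300 had 7.17 RPKM in the seed coat and 198 RPKM in the cotyledon, a smaller ratio of 27.7-fold (26.3 to 29.1). The near copies Glyma.20G148200 and Glyma.20G146200, with 3.55 and 3.54 RPKM in the seed coat and 147 RPKM each in the cotyledon, can share reads. Most of what the list held in the seed coat was 1 cupin, Glyma.U020300, at 409 RPKM in the seed coat and 529 RPKM in the cotyledon. The seed lectin Le1, Glyma.02G012600, had 0.124 RPKM in the seed coat and 22.8 RPKM in the cotyledon.

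Oil bodies are coated by oleosins and caleosins. All 20 kept oil body models had a lower level in the seed coat than in the cotyledon, 10 of them by at least 4-fold, with a median of -1.95. The oleosin Glyma.16G071800 had 28.8 RPKM in the seed coat and 765 RPKM in the cotyledon (26.6-fold lower, 25.7 to 27.5). The most abundant members differed less: the caleosin Glyma.10G189900 had 658 RPKM in the seed coat and 1273 RPKM in the cotyledon, and the oleosin Glyma.05G004300 had 391 RPKM and 925 RPKM. Lipoxygenases, which oxidise polyunsaturated fatty acids and were added as a list after their values had been seen, had members on both sides. Of 10 kept models 2 were at least 4-fold higher in the seed coat and 4 lower. The LOX1 match Glyma.15G026300 had 153 RPKM in the seed coat and 1315 RPKM in the cotyledon, while the LOX2 match Glyma.20G053700 had 13.5 RPKM in the seed coat and 0.0181 RPKM in the cotyledon. A further list holds lipid-transfer proteins, which carry lipids between membranes and to surfaces, together with 2S albumins, small storage proteins of the same domain family. Of its 24 kept members 15 were at least 4-fold lower in the seed coat and 1 higher, with a median of -2.17. That median was -0.14 with no minimum level. Glyma.12G213600 had 7.21 RPKM in the seed coat and 329 RPKM in the cotyledon, and Glyma.13G288100 had 1.09 RPKM and 114 RPKM.

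Proteins of drying were abundant in both tissues. Late embryogenesis abundant (LEA) proteins and dehydrins are hydrophilic proteins that protect cells during water loss. They took 9.53% of the summed RPKM in the seed coat and 9.66% in the cotyledon, or 5.00% and 7.75% when the dropped chromosome 13 models stayed in the sum. Of 58 kept models 5 were at least 4-fold higher and 9 lower, with a median of -0.11, or 0.60 with the median ratio scaling. The dehydrin Glyma.09G185500 had 7064 RPKM in the seed coat and 4581 RPKM in the cotyledon (1.54-fold, 1.54 to 1.55). The LEA4-5 match Glyma.19G147200 had 5387 RPKM in the seed coat and 2841 RPKM in the cotyledon, and another LEA4-5 match, Glyma.03G144400, had 3792 RPKM and 4572 RPKM, a log2 difference of -0.27 that was 0.22 with the median ratio scaling. Glyma.16G031300, a match of LEA14, had 1918 RPKM in the seed coat and 3087 RPKM in the cotyledon. The embryo form matched to EM1, Glyma.18G203500, was lower at 64.8 RPKM in the seed coat and 301 RPKM in the cotyledon. The most negative difference among the LEA models, -5.04, was that of the COR47-matched dehydrin Glyma.04G009400, with 3.62 RPKM in the seed coat and 122 RPKM in the cotyledon (33.8-fold lower, 30.7 to 37.3).

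Sugars of the raffinose family accumulate in drying seeds and help to form the glassy state. Of 13 kept enzymes none passed 4-fold, the median was 0.23, and their share was 1.37% in the seed coat and 0.847% in the cotyledon. The SIP2 match Glyma.03G137900 had 2337 RPKM in the seed coat and 1160 RPKM in the cotyledon, and the galactinol synthase match Glyma.10G145300 had 506 RPKM and 216 RPKM. Small heat shock proteins, chaperones that hold unfolded proteins, were lower in the seed coat: of 56 kept models 20 were at least 4-fold lower and none higher, with a median of -1.15. The HSP21 match Glyma.18G094600, a plastid form in Arabidopsis, had 1.53 RPKM in the seed coat and 87.4 RPKM in the cotyledon, and Glyma.14G063700 had 12.9 RPKM and 404 RPKM. The HSP17.6II match Glyma.06G054700, a cytosolic class II form, had 52.0 RPKM in the seed coat and 31.9 RPKM in the cotyledon. Larger chaperones of the HSP70, HSP90 and HSP100 families had a median of -0.34 over 65 models (0.15 with the median ratio scaling), with 1 at least 4-fold higher and 2 lower. Antioxidant enzymes had a median of -1.03 over 29 models, with 7 at least 4-fold lower and none higher. The 2-Cys peroxiredoxin match Glyma.10G078400, a plastid enzyme that removes peroxide, had 3.61 RPKM in the seed coat and 36.2 RPKM in the cotyledon.

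NAC factors, many of which act in wall thickening and cell death, had 16 of 51 kept models at least 4-fold higher in the seed coat and 6 lower, with a median near 0 at 0.08. Glyma.19G165600, matched to NAC074, a regulator of programmed death of stigma cells in Arabidopsis, had 16.3 RPKM in the seed coat and 0.0125 RPKM in the cotyledon, from 2 hits. The NAC056 matches Glyma.13G280000 and Glyma.12G221400, named after an Arabidopsis factor that acts in the integuments, had 53.4 and 52.9 RPKM in the seed coat and 2.01 and 2.07 RPKM in the cotyledon. The ATAF1 match Glyma.13G030900, a stress-induced factor, had 81.4 RPKM in the seed coat and 354 RPKM in the cotyledon. WRKY factors, which act in defence and senescence, had 11 of 40 kept models at least 4-fold higher and none lower, with a median of 0.88. That median was 0.11 with a minimum of 5 RPKM and 0.14 with no minimum level. The WRKY23 match Glyma.03G220800 had 24.3 RPKM in the seed coat and 0.258 RPKM in the cotyledon.

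Among AP2 and ERF factors 16 of 95 kept models were at least 4-fold higher in the seed coat and 15 lower, with a median of 0.05. Glyma.17G210500, matched to SHN2 of the SHINE group that controls cutin and wax in Arabidopsis, had 33.1 RPKM in the seed coat and 0.0559 RPKM in the cotyledon (591-fold, 287 to 1472). At the other end, the ABI4 matches Glyma.14G057900 and Glyma.02G264700, factors of abscisic acid response in the embryo, had 0.101 and 0.166 RPKM in the seed coat and 13.8 and 6.97 RPKM in the cotyledon. Only 3 of 172 MADS-box models were kept. Glyma.04G043800, matched to AGL66, had 25.5 RPKM in the seed coat and 0.181 RPKM in the cotyledon, and Glyma.02G179300, matched to AGL62, an Arabidopsis endosperm factor, had 3.67 RPKM and 0.0493 RPKM. Of the 11 kept models of the ethylene insensitive 3 family, transcription factors of ethylene response, 4 were at least 4-fold higher in the seed coat and 1 lower, and this family was added after its values had been seen. Glyma.05G180300 had 1214 RPKM in the seed coat and 25.2 RPKM in the cotyledon (48.2-fold, 46.7 to 49.7), and Glyma.08G137800 had 417 RPKM and 15.8 RPKM. The models matched to EIN3 itself did not share this: Glyma.20G051500 had 27.2 RPKM in the seed coat and 45.9 RPKM in the cotyledon, and Glyma.02G274600 had 0.652 RPKM and 6.59 RPKM. Glyma.16G023000, matched to MYB111, an Arabidopsis factor of flavonol synthesis, was among the most negative differences and had 0.253 RPKM in the seed coat and 74.4 RPKM in the cotyledon.

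Abscisic acid holds seeds dormant and drives drying tolerance. In its signalling list 5 of 40 kept models were at least 4-fold higher and 5 lower, with a median of -0.21, or 0.29 with the median ratio scaling. Of all kept models 4.69% were higher and 8.98% lower. The receptor match PYL6, Glyma.13G229300, had 630 RPKM in the seed coat and 102 RPKM in the cotyledon. The phosphatase match PP2CA, Glyma.14G066400, which holds the pathway off, had 46.4 RPKM in the seed coat and 5.87 RPKM in the cotyledon. A kinase matched to SNRK2.3, Glyma.11G058800, was on the other side with 2.01 RPKM in the seed coat and 9.68 RPKM in the cotyledon. The seed regulators ABI3 and ABI5 were present in both: the ABI3 match Glyma.18G176100 had 39.9 RPKM in the seed coat and 87.9 RPKM in the cotyledon, and the ABI5 match Glyma.19G194500 had 30.6 RPKM and 27.0 RPKM.

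Enzymes of walls and sugars showed single members with large differences. Both kept matches of CSLA9, which makes mannan of the cell wall, were higher in the seed coat: Glyma.03G183500 had 96.3 RPKM in the seed coat and 0.562 RPKM in the cotyledon (171-fold, 144 to 205), and Glyma.19G184200 had 78.4 RPKM and 0.349 RPKM. The secreted alpha-amylase match Glyma.17G242400 had 55.5 RPKM in the seed coat and 0.0629 RPKM in the cotyledon. A starch branching enzyme match of the same protein family, Glyma.04G017700, was lower, with 1.03 RPKM in the seed coat and 8.26 RPKM in the cotyledon. The CSLA9 and alpha-amylase lists were added after their values had been seen. Expansins loosen walls, and Glyma.07G132600 had 53.8 RPKM in the seed coat and 0.886 RPKM in the cotyledon, while the family had 3 of 14 kept models at least 4-fold higher and 4 lower. Among sugar carriers and invertases 7 of 24 kept models were at least 4-fold higher and 3 lower, with a median of -0.48, or 0.20 with the median ratio scaling. The SWEET sugar exporter Glyma.06G200200 had 11.7 RPKM in the seed coat and 0.232 RPKM in the cotyledon.

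Steps of the glyoxylate cycle, which turns stored fat into sugar after germination, were divided between the tissues. This list was also added after its values had been seen. The isocitrate lyase matches Glyma.12G100500 and Glyma.06G303200 had 31.6 and 21.4 RPKM in the seed coat and 0.126 and 0.152 RPKM in the cotyledon, 250-fold (181 to 357) and 141-fold higher. Malate synthase, the enzyme of the next step, was on the other side: Glyma.17G128000 had 17.4 RPKM in the seed coat and 260 RPKM in the cotyledon, 14.9-fold lower (14.5 to 15.4). The gluconeogenesis enzyme PCK1 was low in both, and its match Glyma.01G019200 had 1.47 RPKM in the seed coat and 0.0921 RPKM in the cotyledon.

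Aquaporins carry water through membranes. Abundant plasma membrane forms were lower in the seed coat: Glyma.14G061500, a PIP1;4 match, had 25.0 RPKM in the seed coat and 351 RPKM in the cotyledon, and Glyma.13G325900, a PIP2;2 match, had 13.3 RPKM and 131 RPKM. A form of the NOD26-like group, Glyma.15G087300, went the other way and had 14.4 RPKM in the seed coat and 0.581 RPKM in the cotyledon. Over the family 4 of 30 kept models were at least 4-fold higher and 11 lower, with a median of -1.64, or -0.46 with no minimum level. Genes of low oxygen response had a median of -1.95, or -0.74 with no minimum level. Of 24 kept models 12 were at least 4-fold lower and none higher. The alcohol dehydrogenase match Glyma.14G156400, the enzyme of ethanol fermentation, had 0.459 RPKM in the seed coat and 18.6 RPKM in the cotyledon. Papain family proteases, which break down reserve proteins or act in cell death, had 7 of 21 kept models at least 4-fold lower in the seed coat and none higher. The most abundant, Glyma.10G207100, had 1320 RPKM in the seed coat and 3765 RPKM in the cotyledon, and the XBCP3 match Glyma.08G116300 had 0.162 RPKM and 47.5 RPKM.

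Lignin and flavonoid enzymes took small shares of the summed RPKM in both dry tissues, smaller in the seed coat than in the cotyledon. Lignin branch enzymes took 0.00855% in the seed coat and 0.0422% in the cotyledon. Chalcone synthase, the first enzyme of the flavonoid pathway, took 0.00152% and 0.0181%, and the flavonoid enzymes after it 0.00849% and 0.0170%. Of 49 lignin branch models 9 were kept, 2 at least 4-fold higher in the seed coat and 4 lower. The cinnamyl alcohol dehydrogenase match Glyma.10G262400, of the last step to lignin monomers, had 0.328 RPKM in the seed coat and 45.4 RPKM in the cotyledon, while the ferulate 5-hydroxylase match Glyma.01G169200 had 4.71 RPKM and 0.0132 RPKM. Of 208 class III peroxidases 23 were kept and took 0.0338% of the summed RPKM in the seed coat and 0.0446% in the cotyledon, beside 0.607% in the desiccating seed coat. Core histones, proteins of the nucleosome, had 5 of 57 kept models at least 4-fold higher in the seed coat and 3 lower, with a median of 0.65. At 2-fold 19 were higher and 4 lower. The H2A match Glyma.13G285900 had 6.83 RPKM in the seed coat and no hit in the cotyledon, at least 148-fold higher with the cotyledon set at 3 hits, while Glyma.12G082700 had 0.625 RPKM in the seed coat and 19.6 RPKM in the cotyledon.

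**Figure D3:**
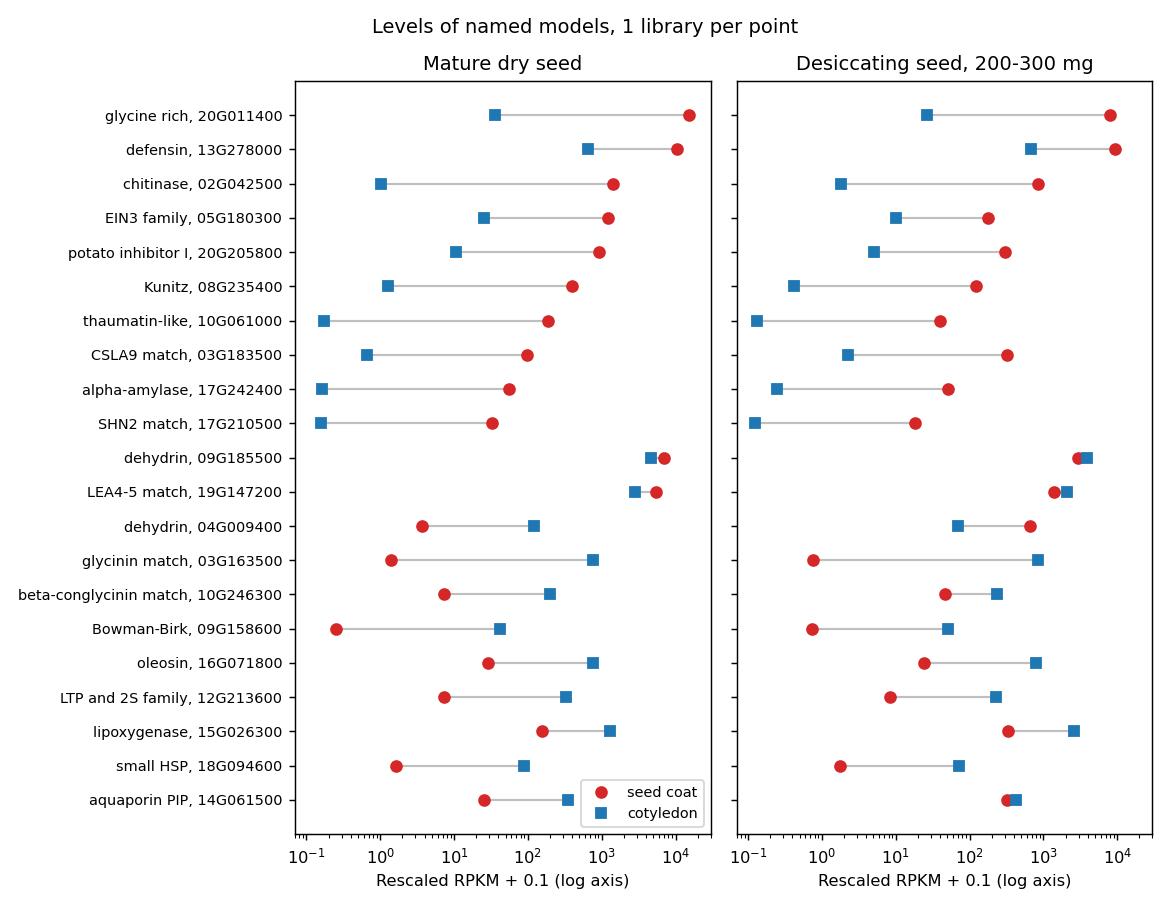
Levels of 21 named models in the seed coat (red circles) and the cotyledon (blue squares) of mature dry seed and of 200-300 mg desiccating seed, on log axes of rescaled RPKM + 0.1, with 1 library per point. Most models keep their side in both pairs, while the dehydrin Glyma.04G009400 lies at 3.62 RPKM in the dry seed coat but 668 RPKM in the desiccating one.

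The same contrast was read in desiccating seed, processed in the same way. There 1819 of the 21365 models (8.51%) were at least 4-fold higher in the seed coat and 847 (3.96%) at least 4-fold lower, and the median difference over these models was 0.05. Of the 1002 models higher in the dry seed coat, 977 had the same sign in desiccating seed and 786 (78.4%) were again at least 4-fold higher, while 4 were at least 4-fold lower. Of the 1918 models lower in the dry seed coat, 1585 had the same sign, 683 (35.6%) were again at least 4-fold lower and 62 were at least 4-fold higher. Shared calls made up a larger part of the models higher in the dry seed coat than of those lower in it. The desiccating pair itself had more higher calls, 8.51% of all kept models, than lower calls, 3.96%. With limits set around the median of each pair the shared parts were 69.6% and 47.2%. The median difference of the higher models was 3.33 in dry seed and 3.31 in desiccating seed, and that of the lower models was -2.80 and -1.46.

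The leading families kept their side. The glycine rich Glyma.20G011400 had 8007 RPKM in the desiccating seed coat and 26.6 RPKM in the desiccating cotyledon, the chitinase Glyma.02G042500 had 840 RPKM and 1.72 RPKM, and the glycinin match Glyma.03G163500 had 0.656 RPKM and 834 RPKM. All 8 Bowman-Birk models at least 4-fold lower in the dry seed coat, and the 1 that was higher, passed 4-fold the same way in desiccating seed, as did 10 of the 12 Kunitz models that were higher and both that were lower. Other lists differed between the stages. LEA proteins and dehydrins took 4.50% of the summed RPKM in the desiccating seed coat and 9.19% in the desiccating cotyledon. Aquaporins had a median of 0.30 in the desiccating pair, where the PIP1;4 match Glyma.14G061500 had 322 RPKM in the seed coat and 419 RPKM in the cotyledon. The lignin enzyme Glyma.10G262400 stood at 24.4 RPKM in the desiccating seed coat and 21.6 RPKM in the desiccating cotyledon. The ethylene insensitive 3 family took 0.622% of the summed RPKM of the dry seed coat, against 0.0466% for the dry cotyledon, and 0.141% and 0.0321% in the desiccating seed coat and cotyledon.

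**Figure D4:**
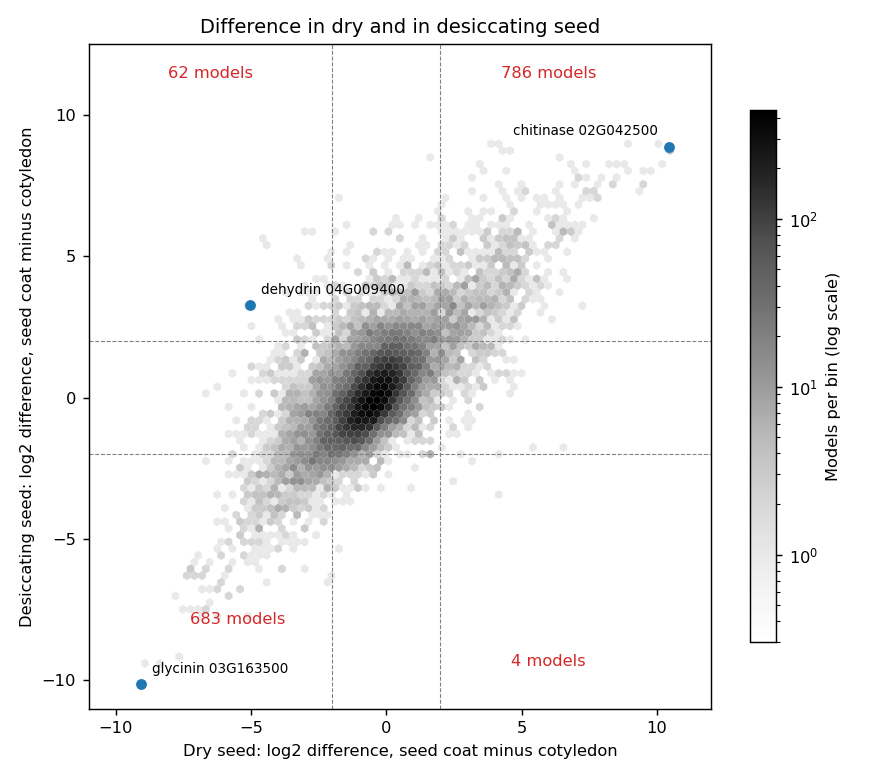
Log2 difference, seed coat minus cotyledon, in dry seed (horizontal) and in desiccating seed (vertical) for the 21365 kept models, shaded by the number of models per bin on a log scale, with dashed lines at 4-fold. In the corners 786 models are past 4-fold higher in both pairs, 683 lower in both, 62 lower in dry but higher in desiccating seed, and 4 the reverse.

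Among the 12 libraries, earlier seed coats differed in what they held of the most abundant models of the dry seed coat. Glyma.20G011400 had 0.565 RPKM in the 25-50 mg Williams seed coat, and the defensin Glyma.13G278000 had no hit there. The unannotated scaffold model Glyma.U005800 had 30470 RPKM in the 5-6 mg and 672 RPKM in the 25-50 mg Williams seed coat, beside 7603 RPKM in the dry one. The glycine rich family took 0.0324% of the summed RPKM in that 25-50 mg seed coat, 4.80% in the desiccating and 9.54% in the dry seed coat, and at most 0.102% in any library that was not a seed coat. Kunitz inhibitors had their highest share in the dry seed coat as well, 0.459%, and the next was 0.196% in the 25-50 mg seed coat of W55, a black-seeded line. Storage globulins had 1.21% in the desiccating cotyledon and 0.937% in the dry cotyledon, 0.370% and 0.541% in the embryo axes of 200-300 mg and 300-400 mg seed, and 0.302% and 0.186% in the desiccating and dry seed coats.

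**Figure D5:**
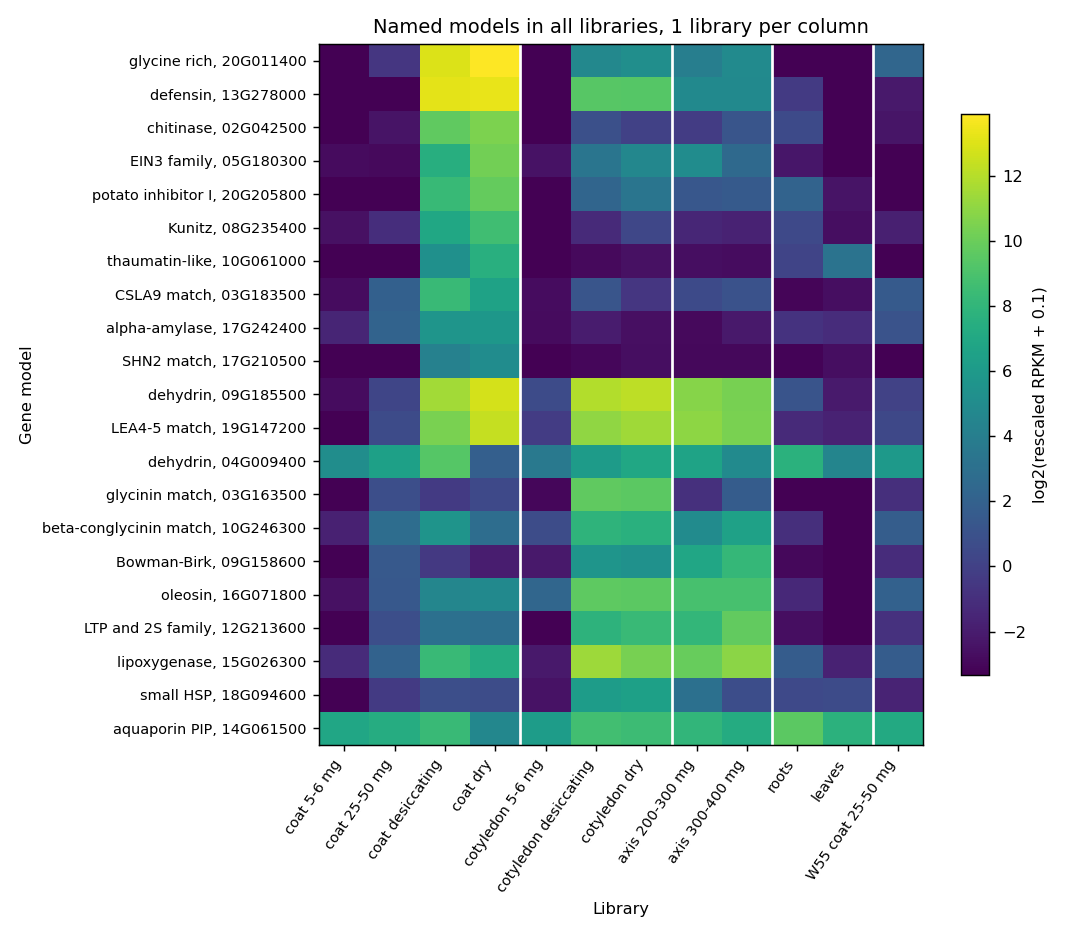
The same 21 named models in all 12 libraries, with columns grouped by tissue and ordered by stage within seed coats, cotyledons and embryo axes, and colour giving log2(rescaled RPKM + 0.1). The first 10 models are brightest in the desiccating and dry seed coats, led by Glyma.20G011400 at 15256 RPKM, while the oleosin, lipid-transfer and 2S family, and lipoxygenase models are bright in the later cotyledons and axes.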

How the data were processed

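RNA-Seq of 12 soybean libraries was used, each with 1 column of RPKM per gene model that could be mapped to its sample. The authors aligned reads with Bowtie to the transcripts of the soybean gene models, splice variants included, let a read align more than once and with mismatches, and deposited the hits as RPKM, so similar models share reads. Models without annotation in a stretch of chromosome 13 were dropped, the columns were scaled to the summed RPKM of the dry cotyledon (a factor of 1.06 for the dry seed coat), and models with at least 1 RPKM in the dry seed coat or the dry cotyledon were kept. Differences are log2(RPKM + 0.1), seed coat minus cotyledon, called at 4-fold. The library denominators were recovered from whole hit numbers within a tolerance of 0.001, and ratios of hits were given exact Clopper-Pearson 95% intervals. A model without hits was set at 3 hits.

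The members and the 49 gene lists were chosen with earlier results of these data known, and 7 further lists after values had been seen. The models named were those among the 10 highest of each dry library, the 15 largest and 15 most negative differences among models with at least 5 RPKM, and the 3 highest members and 3 largest differences past 4-fold of each list. Models named outside that rule, after their values were seen, were Glyma.01G217600, Glyma.05G204800, Glyma.06G054700, Glyma.08G259200, Glyma.10G078400, Glyma.11G058800, Glyma.12G221400, Glyma.13G325900, Glyma.16G100400, Glyma.18G203500, Glyma.20G051500 and Glyma.20G146200, and the pair at the 1 RPKM limit. Alternatives were other pseudocounts, minimum levels, fold limits and scalings. The scripts were checked on simulated data. Python 3.11.15, numpy 2.4.6, pandas 2.3.3, scipy 1.17.1 and matplotlib 3.10.9 were used.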

Additional observations from a re-analysis of the deposited data

Results flagged for a closer look

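Several models and lists lay on opposite sides in dry and desiccating seed. With 1 library per tissue and stage these differences between stages were not tested. The COR47-matched dehydrin Glyma.04G009400, a protein of drying and cold, had a log2 difference, seed coat minus cotyledon, of -5.04 in dry seed and 3.27 in desiccating seed. Glyma.20G196900, matched to the plastid iron superoxide dismutase FSD2, had -3.39 and 4.94 in dry and desiccating seed. Glyma.16G209400, of the cutin, suberin and wax list, had -4.79 and 2.12. Glyma.17G065100, matched to the xyloglucan endotransglucosylase XTH23, had -2.93 and 2.42. Of whole lists, the median of pectin methylesterases and their inhibitors, which set the stiffness of pectin, was -1.08 in dry seed (0.078 with median ratio scaling) and 1.24 in desiccating seed, and that of papain family proteases was -1.19 (0.22 with no minimum level) and 2.66.

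The chromosome 13 models left out of the comparison took 47.6% of the summed RPKM of the dry seed coat as deposited, against 19.8% for the dry cotyledon.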

How the results depend on the processing

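The counts of models 4-fold higher and lower in the dry seed coat, 1002 and 1918, became 435 and 608 when the pseudocount was 1 RPKM, 467 and 784 with a minimum of 5 RPKM, 1881 and 5839 at a 2-fold limit, and 588 and 811 at 8-fold. They were within 1.5 times with a pseudocount of 0.01, no minimum, the deposited scale, both other scalings, and without unannotated models, an alternative chosen after seeing the data. Of 47 lists with at least 5 kept members, 23 had a median past 2-fold, 15 with a pseudocount of 1 RPKM and 9 with no minimum. Of the 47 list medians, 19 changed sign under at least 1 of 5 alternatives, 11 of them with median ratio scaling, 10 with no minimum, 5 with a minimum of 5 RPKM, 3 on the deposited scale and 0 with a pseudocount of 1 RPKM. Those past 2-fold that changed sign were laccases (0.062, against -1.13), papain family proteases (0.22, against -1.19) and lipoxygenases (0.084, against -1.81) with no minimum, and pectin methylesterases and inhibitors with no minimum (0.12) and with median ratio scaling (0.078, against -1.08). The 1469 models past 4-fold the same way in both pairs became 3857 at 2-fold and 687 with a minimum of 5 RPKM. With all models in the sum, LEA proteins took 5.00% of the dry seed coat and 7.75% of the dry cotyledon. The cause of these changes was not tested. Of 42 single models 1, Glyma.03G144400, changed sign under any of the 3 alternatives run for each, with -0.27 as reported and 0.22 under median ratio scaling. Intervals rest on hits and take no pseudocount. No paired analysis was possible because each tissue and stage has 1 library, which also leaves the spread between plants unmeasured.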
